A study of Mus musculus with 40 samples.

Results

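The methionine cycle enzymes described here are the genes of a list of 8 (Bhmt, Gnmt, Mat1a, Mat2a, Ahcy, Cbs, Cth and Pemt) whose symbols were found in expression tables of mouse liver. Of these, 6 were found among the 11119 genes of the tables: Mat1a, Ahcy, Bhmt, Cbs, Cth and Pemt. Gnmt and Mat2a were not analysed here. They were matched by symbol, and the rule that selects them uses no level from the tables.

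RNA sequencing of polyadenylated RNA had been done on livers before and after partial hepatectomy (PH), the surgical removal of part of the liver, after which the remaining hepatocytes leave rest and divide. Mice of 3 months were sampled at 0 h (7 mice), at 48 h (3) and at 72 h (4), and 4 more mice of that age had received ATRi at 24 h and were sampled at 72 h. Mice of 12 months were sampled at 0 h (8 mice), 48 h (3) and 72 h (4), and mice of the same age given ATRi at 24 h were sampled at 48 h (3) and 72 h (4). ATRi blocks ATR, a kinase that responds when replication forks stall, and neither its dose unit nor the strain of the mice is given in the sources used here. Every 0 h group is the only control before surgery for its age, and the mouse numbers show that both 72 h groups of 12 months hold 4 mice each that also gave a 0 h sample, while those of 3 months hold 2 each.

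The methionine cycle makes S-adenosylmethionine (SAM), the methyl donor for most methylation reactions, and the liver is its main site. MAT1A joins methionine with ATP to form SAM, methyltransferases such as PEMT use SAM and leave S-adenosylhomocysteine, and AHCY splits that product into homocysteine and adenosine. Homocysteine is then either methylated back to methionine, by BHMT with betaine as the donor or by methionine synthase with folate, or passed by CBS and CTH into cysteine, which feeds taurine and glutathione.

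Levels are given as the authors' log2 value, which they call sigma and which the sources do not define, so levels of different genes were not compared with each other. For 8 of the 9 groups the tables hold 1 mean with no spread between mice. Only the 12-month ATRi group at 72 h also has single livers, from 4 mice numbered M545 to M548. Their levels, and counts of livers above a mean, are given as deposited. For the tests each gene's livers were shifted to the deposited mean of the group, by 0.33 for Cth. A difference is the log2 level of the group named first less that of the other. Differences between 2 deposited means have no spread of their own and were counted at 1 or more in either direction. As an alternative, limma was run on them with the spread of the 4 single livers borrowed for both groups and mice shared with 0 h taken as independent, and its adjusted p is given beside the enzymes that reached 1 or passed. Comparisons with the 4 livers were tested with limma, with p-values adjusted over all 11119 genes (Benjamini-Hochberg, threshold 0.05), and the other groups were assumed to vary like these 4 livers.

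The labels call the tissue liver and the cells hepatocytes. Of 13 hepatocyte markers 9 were measured, with a log2 of the summed level between 15.01 (0 h, 3 months) and 16.19 (untreated, 72 h, 12 months). The highest level of any single marker was 16.01, so these sums rest largely on the markers with the highest levels. Single markers went both ways. At 0 h 4 of the 9 were higher and 5 lower at 12 than at 3 months. From 0 to 48 h at 3 months 5 were higher and 4 lower. The sum therefore does not measure hepatocyte content. Markers of other cells were present too. The log2 of the summed level of 11 Kupffer cell and macrophage markers lay between 7.82 and 8.70 in 7 groups, and was 9.77 in the untreated and 9.64 in the ATRi livers of 12 months at 72 h. That of 7 neutrophil markers lay between 3.54 and 5.52 in the same 7 groups and was 6.54 and 6.99 in those 2. The last of these groups also stood apart from the others along the intron length of genes, with values given beside the tests. In such bulk samples, fewer cells of a type and less RNA per cell cannot be told apart.

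Promoters are shown for 3 enzymes, because Ahcy and Pemt were the enzymes with the widest range over the groups and Bhmt was the one that differed by 1 or more with ATRi at 3 months. They are windows of 300 bases around a start site, from RefSeq (GRCm38.p6), read 5′ to 3′ on the gene's strand. The windows lie at chr2:155074448-155074747 (Ahcy), chr11:60040139-60040438 (Pemt, the first of 2 listed) and chr13:93637709-93638008 (Bhmt), all on the minus strand. Both Pemt windows lie inside the gene as annotated by GENCODE, and neither covers its 5′ end at 60046489. Those of Ahcy and Bhmt cover theirs. Capitals mark matches to the CCAAT box (CCAAT, or ATTGG on the other strand) and the GC box (GGGCGG, or CCGCCC).
Ahcy: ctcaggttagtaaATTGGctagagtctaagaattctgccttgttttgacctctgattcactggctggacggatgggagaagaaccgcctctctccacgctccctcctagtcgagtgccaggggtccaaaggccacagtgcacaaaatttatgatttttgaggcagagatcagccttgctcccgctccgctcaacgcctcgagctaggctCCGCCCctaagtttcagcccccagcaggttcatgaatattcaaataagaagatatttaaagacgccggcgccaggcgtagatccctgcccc
Pemt: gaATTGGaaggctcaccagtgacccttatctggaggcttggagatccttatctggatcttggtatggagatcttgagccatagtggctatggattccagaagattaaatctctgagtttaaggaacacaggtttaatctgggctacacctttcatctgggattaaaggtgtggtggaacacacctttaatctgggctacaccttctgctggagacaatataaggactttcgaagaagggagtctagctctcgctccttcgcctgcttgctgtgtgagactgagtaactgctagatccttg
Bhmt: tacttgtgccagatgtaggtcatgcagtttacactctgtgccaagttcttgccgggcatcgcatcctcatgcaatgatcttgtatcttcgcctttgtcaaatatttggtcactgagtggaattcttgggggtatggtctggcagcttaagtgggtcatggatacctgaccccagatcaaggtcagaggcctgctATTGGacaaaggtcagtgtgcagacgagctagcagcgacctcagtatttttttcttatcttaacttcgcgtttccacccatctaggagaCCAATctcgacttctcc

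The table held promoters of 4 of the 6 enzymes (Ahcy, Pemt with 2 windows, Bhmt and Cbs), none for Mat1a and Cth. CCAAT, searched on both strands as were the other motifs, was found in 4 of these 5 windows, against 37.4% of all 32851 windows. GGGCGG was found in 2 of 5 (35.7% of all), in the Ahcy and Cbs windows. The E-box CACGTG occurred in that of Cbs (7.15% of all), and AGAACA, a glucocorticoid receptor motif, in the second Pemt window (19.0%). TATAAA (13.6% of all), TGATGNAA of the ATF4 composite element (3.97%), CAAAGTCCA of HNF4 (0.475%) and TTCCCGC of E2F (4.60%) matched none of the 5. These matches describe letters in the windows and not binding sites.

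Mat1a (ENSMUSG00000037798.7, GRCm38 chromosome 14, 41105035 to 41124412, plus strand) encodes the hepatocyte enzyme that makes SAM. Its level at 3 months was 10.10 at 0 h, 10.04 at 48 h, 10.39 at 72 h and 10.32 at 72 h with ATRi. At 12 months it was 9.84 at 0 h, 10.06 at 48 h, 9.72 at 48 h with ATRi, 10.43 at 72 h and 10.77 at 72 h with ATRi. The 4 single livers of this last group had 10.99, 10.36, 10.70 and 10.72 (M545 to M548; SD 0.26, n = 4). The 4 groups at 72 h were the 4 highest of the 9. Neighbours in the order of the means lay within 1 SD of the livers of each other, except the step of 0.35 from the untreated to the ATRi group of 12 months at 72 h.

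Ahcy (ENSMUSG00000027597.15, chromosome 2, 155059310 to 155074497, minus strand) encodes the enzyme that clears S-adenosylhomocysteine, itself an inhibitor of methyltransferases. An antisense gene, Gm45609, overlaps it, and since the strand handling of the counting is not given, its reads cannot be told apart from those of Ahcy. At 3 months its level was 5.87 at 0 h, 5.40 at 48 h, 6.78 at 72 h and 6.45 at 72 h with ATRi. At 12 months it was 4.87 at 0 h, 5.87 at 48 h, 5.69 at 48 h with ATRi, 5.93 at 72 h and 6.91 at 72 h with ATRi, where the livers had 7.07, 6.27, 6.70 and 7.25 (SD 0.43, n = 4). The lowest mean was that of 12-month livers before surgery and the highest that of 12-month ATRi livers at 72 h, a range of 2.04 that was wider than in 92.9% of all genes. All 4 livers lay above each of the other 12-month means. The lowest step in the order (0.54, from 0 h at 12 months to 48 h at 3 months) and the step from untreated 72 h at 12 months to ATRi 72 h at 3 months (0.52) exceeded 1 SD of the livers, and the other steps did not.

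Bhmt (ENSMUSG00000074768.6, chromosome 13, 93616675 to 93637961, minus strand) encodes betaine-homocysteine methyltransferase. Its level at 3 months was 6.73 at 0 h, 5.99 at 48 h, 5.79 at 72 h and 6.96 at 72 h with ATRi. At 12 months it was 6.01 at 0 h, 5.46 at 48 h, 5.71 at 48 h with ATRi, 6.05 at 72 h and 5.66 at 72 h with ATRi. The 4 livers of the last group had 5.32, 6.18, 5.26 and 4.93 (SD 0.53, n = 4), so that M546 stood above the other 3. The 2 highest means were those of 3-month livers at 0 h and with ATRi at 72 h, and the step of 0.68 below them was the only one in the order above 1 SD of the livers. Its close relative Bhmt2, which uses another methyl donor, had levels of 8.48, 7.85, 8.43 and 8.59 in the same 4 groups of 3 months. At 12 months, in the same order, Bhmt2 had 8.46, 7.66, 7.87, 8.20 and 8.38. Bhmt2 was thus lowest at 48 h at either age, whereas Bhmt at 3 months was lowest at 72 h without ATRi. How reads that match both relatives were counted is not given, and Gm15622 overlaps Bhmt on the opposite strand.

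Cbs and Cth encode the transsulfuration enzymes. Cbs (ENSMUSG00000024039.15, chromosome 17, 31608894 to 31637238, minus strand) had levels at 3 months of 8.92 at 0 h, 8.87 at 48 h, 9.18 at 72 h and 9.09 at 72 h with ATRi. At 12 months these were 9.05 at 0 h, 9.10 at 48 h, 9.24 at 48 h with ATRi, 9.28 at 72 h and 9.13 at 72 h with ATRi, with livers at 8.79, 9.11, 9.06 and 9.002 (SD 0.14, n = 4). It was the steadiest of the 6 enzymes, with a range of 0.41 that was narrower than in most genes (10.3% of all genes had a smaller one), and no step in the order exceeded 1 SD of the livers.

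Cth (ENSMUSG00000028179.12, chromosome 3, 157894248 to 157925077, minus strand) had levels at 3 months of 7.90 at 0 h, 7.78 at 48 h, 8.31 at 72 h and 8.04 at 72 h with ATRi. At 12 months it had 7.87 at 0 h, 7.38 at 48 h, 7.75 at 48 h with ATRi, 7.92 at 72 h and 8.26 at 72 h with ATRi. Among the livers of the last group M545 had 8.94 and the other 3 had 7.66, 7.57 and 7.56 (SD 0.67, n = 4). One liver therefore stood apart, and the deposited mean lay above the other 3. M545 also had the highest log2 summed level of Kupffer cell markers (10.13 against 9.22 to 9.45) and of cholangiocyte markers (9.22 against 7.55 to 8.31) and the lowest of sinusoidal endothelial markers (6.47 against 7.29 to 7.49), and the part of these differences in the Cth value was not tested. No step between neighbouring Cth means exceeded 1 SD of the livers.

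Pemt (ENSMUSG00000000301.16, chromosome 11, 59970614 to 60046489, minus strand) encodes the enzyme that makes phosphatidylcholine from phosphatidylethanolamine and is a large user of SAM in liver. Its level at 3 months was 3.91 at 0 h, 3.13 at 48 h, 4.12 at 72 h and 3.96 at 72 h with ATRi. At 12 months it was 3.71 at 0 h, 3.55 at 48 h, 3.44 at 48 h with ATRi, 4.15 at 72 h and 5.28 at 72 h with ATRi, where the livers had 6.03, 4.45, 4.24 and 5.08 (SD 0.80, n = 4). All 4 livers were above all 8 other means, and they spread over 1.79. The step of 1.12 below the highest mean was the only one above 1 SD of the livers.

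**Figure D1:**
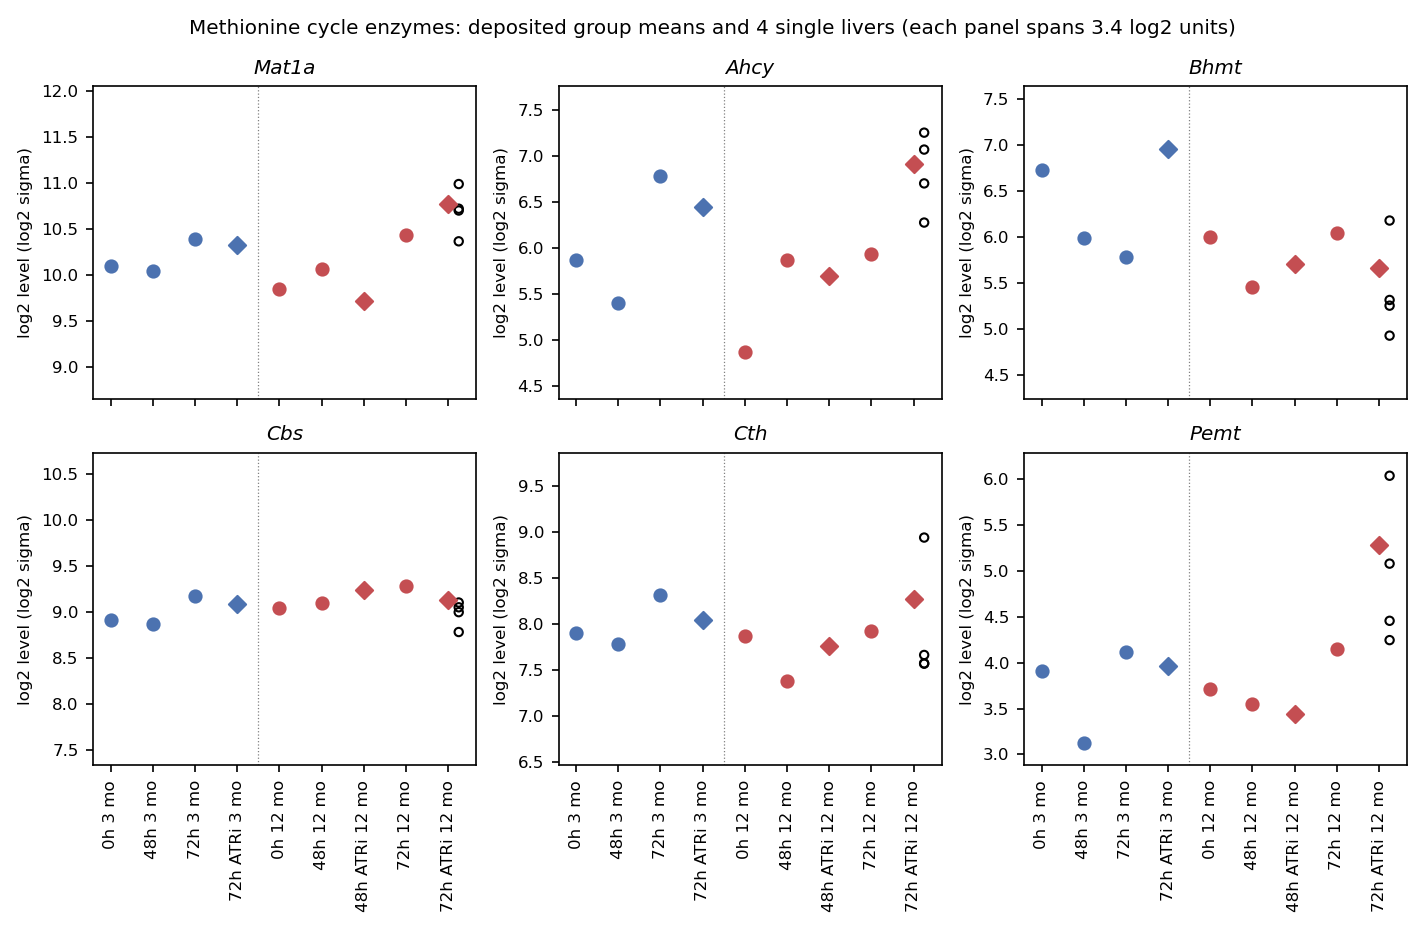
Log2 level (log2 sigma) of each enzyme in the 9 groups: filled points are deposited group means (blue 3 months, red 12 months, diamonds with ATRi) and open circles are the 4 single livers of the 12-month ATRi group at 72 h. Ahcy and Pemt have the widest ranges (2.04 and 2.15), Cbs the narrowest (0.41), and in Cth a single liver lies at 8.94.

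The first comparison asked how the enzymes differed with age. Before surgery 5 of 6 were lower at 12 than at 3 months (median −0.22, against −0.05 over all genes), and Ahcy, at −1.002, was the only one to reach 1 in size, in a comparison where 1.27% of all genes did. Bhmt differed by −0.72, Mat1a by −0.25, Pemt by −0.20, Cth by −0.03 and Cbs by 0.13. At 48 h (1.36% of all genes) and at 72 h (2.74%) no enzyme differed by 1 or more between the ages. Ahcy then differed by 0.46 and −0.85, so its difference changed sign between the time points. Centring on the median of all genes brought the Ahcy difference at 0 h below 1. With the spread borrowed from the 4 livers, the Ahcy difference at 0 h had an adjusted p of 0.0336 by limma, and no other enzyme passed at any of the 3 times.

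In the second set of comparisons, over time after PH without ATRi, all 6 enzymes were lower at 48 h than at 0 h at 3 months. The differences ran from −0.78 for Pemt, −0.74 for Bhmt and −0.47 for Ahcy to −0.04 for Cbs, with a median of −0.29 (−0.09 over all genes, 60.7% of which were lower). Centred on the median of all genes, Mat1a (0.03) and Cbs (0.05) changed sign, so 4 of the 6 were then lower. None reached 1, as 6.43% of all genes did. By 72 h at 3 months 5 of 6 were above their 0 h level (median 0.28, all genes −0.09), led by Ahcy (0.91) and Cth (0.42), while Bhmt was at −0.94. Again none reached 1 (4.49% of all genes). Between 48 and 72 h Ahcy was higher by 1.38 and Pemt by 0.99, so that 1 of 6 reached 1 (4.65% of all genes). With the borrowed spread Ahcy passed against 0 h (limma, adjusted p = 0.0352) and against 48 h (0.0365), and Bhmt at 72 h against 0 h had 0.0518.

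At 12 months the course was different in its values. At 48 h Ahcy was already 1.001 above its 0 h level (1 of 6 enzymes, 5.12% of all genes), whereas at 3 months its difference was −0.47. Bhmt was at −0.55 and Cth at −0.49. At 72 h all 6 were above their 0 h level, from 0.04 for Bhmt to 0.59 for Mat1a and 1.06 for Ahcy, the 1 enzyme of 6 past 1 (3.93% of all genes), with a median of 0.34 while that of all genes was −0.09 and 39.9% of all genes were higher. From 48 to 72 h all 6 were higher too, none by 1 (5.21% of all genes), with Pemt at 0.60, Bhmt at 0.59 and Cth at 0.54. With the borrowed spread Ahcy passed at 48 h (limma, adjusted p = 0.041) and at 72 h (0.0252) against 0 h, as did Mat1a at 72 h (0.0418). Whether the time course differed between the ages was not tested.

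**Figure D2:**
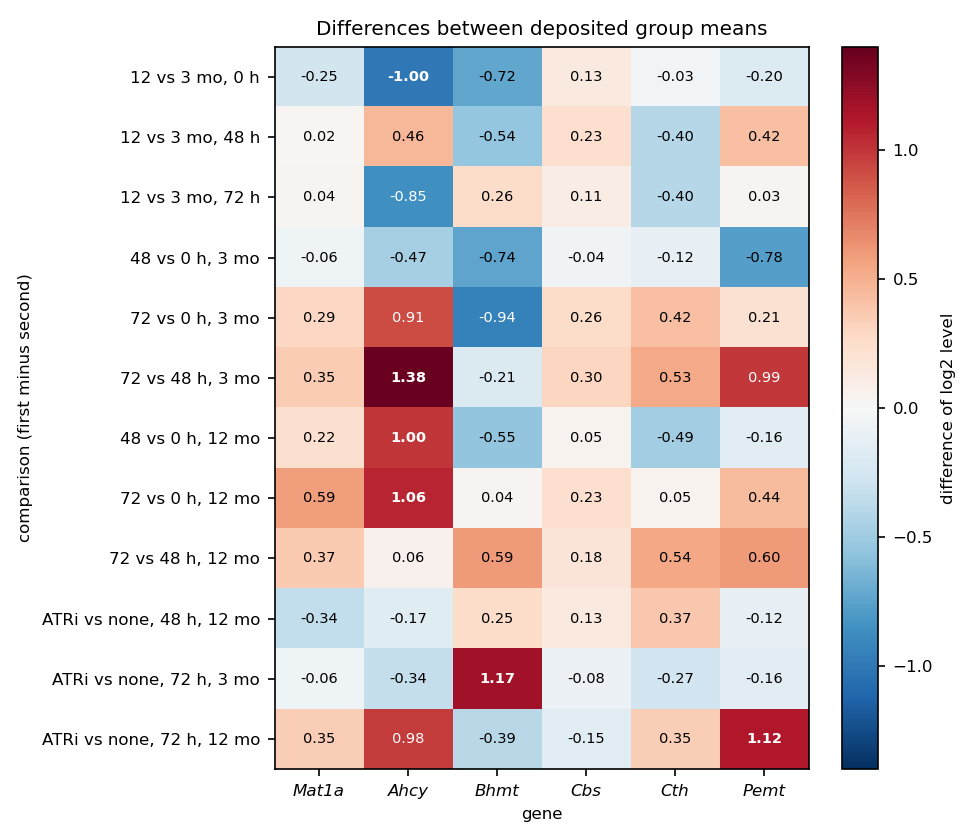
Differences in log2 level between group means for the 6 enzymes (columns) in 12 comparisons (lines), red higher and blue lower in the first-named group; bold values are 1 or more in size. Ahcy carries 4 of the 6 bold values, from −1.002 to 1.38, and Bhmt with ATRi at 3 months has 1.17.

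The third set asked how ATRi changed the enzymes. At 48 h and 12 months no enzyme differed from untreated livers by 1 or more (0.576% of all genes did), with values from −0.34 for Mat1a to 0.37 for Cth. Against 0 h the same ATRi group had Ahcy higher by 0.83 and again no enzyme past 1 (5.2% of all genes). At 72 h and 3 months Bhmt was higher with ATRi by 1.17, at 6.96 against 5.79, and it was 1 of only 20 genes past 1 in that comparison (0.18% of all genes), of which 6 were higher. The other 5 enzymes differed by −0.34 (Ahcy) to −0.06 (Mat1a). Chka, the choline kinase that commits choline to phosphatidylcholine, was also among the genes past 1, at 6.04 with ATRi and 4.90 without (1.14). With ATRi all 6 enzymes at 3 months were above their 0 h level, by 0.06 for Pemt to 0.58 for Ahcy, none by 1 (3.51% of all genes), and Bhmt by 0.23. With the borrowed spread, the ATRi difference of Bhmt had an adjusted p of 0.67 by limma.

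At 72 h and 12 months Ahcy was higher in ATRi than in untreated livers by 0.98 (SE 0.24, 95% interval 0.42 to 1.55; limma, adjusted p = 0.0484), with 4 of 4 livers above the untreated mean of 5.93. It was the 1 enzyme of 6 to pass, in a comparison where 11.4% of all genes did. The call ended with the livers on their deposited scale (0.90, adjusted p = 0.0581 by limma), without the intensity trend and robust setting (0.0601), with each mean given weight 1 (0.35), and without M545 (0.104), M547 (0.123) or M548 (0.121). It was kept only without M546, among the livers left out in turn. Over all genes 1270 passed, against 0 with the livers on their deposited scale, with weight 1, or without M545, M547 or M548, and 2686 without M546.

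The other enzymes did not pass in that comparison. Pemt was 1.12 above the untreated mean, with 4 of 4 livers higher (95% interval 0.13 to 2.12; limma, adjusted p = 0.114). Mat1a was at 0.35 (adjusted p = 0.18 by limma), Cth at 0.35 (0.505), Bhmt at −0.39 (0.373) and Cbs at −0.15 (0.416). For Cth only 1 of 4 livers as deposited, before the shift, lay above the untreated mean of 7.92, and this was M545. Cbs was below the untreated mean in 4 of 4 livers, although its interval reached from −0.44 to 0.14. Without M546 Bhmt passed as well, at −0.64 (limma, adjusted p = 0.046).

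Against the ATRi livers of the same age at 48 h, 3 of 6 enzymes rose, in a comparison where 37.2% of all genes passed. They were Pemt (1.84, SE 0.45; limma, adjusted p = 0.0215), Ahcy (1.22, SE 0.26; 0.0136) and Mat1a (1.05, SE 0.17; 0.00703), each with 4 of 4 livers above the 48 h mean. With each mean at weight 1 none of the 3 passed, at adjusted p-values by limma of 0.115, 0.0838 and 0.0533, and without M548 Pemt had 0.0563. Cth was at 0.51, Cbs at −0.11 and Bhmt at −0.05, none of them past the test. As deposited, before the shift, 1 of 4 livers lay above the 48 h mean of Cth.

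Set against livers before surgery the same 3 of 6 enzymes were higher, with 48.1% of all genes passing. Ahcy had 2.04 (SE 0.20, 95% interval 1.55 to 2.54; limma, adjusted p = 0.0013), Pemt 1.56 (SE 0.36; 0.0133) and Mat1a 0.93 (SE 0.14; 0.00307), again in 4 of 4 livers. With weight 1 only Ahcy passed, Mat1a having 0.0739 and Pemt 0.171 by limma. All 4 mice also belong to the 0 h group, and the test treats them as independent. Without M546 Bhmt also passed here, at −0.60 (limma, adjusted p = 0.0223). The comparison with 48 h and that with 0 h share the 4 livers.

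The ATRi livers of the 2 ages at 72 h differed in 1 of 6 enzymes, against 28.3% of all genes. Bhmt was lower at 12 months, with a difference of −1.30 (SE 0.28, 95% interval −1.98 to −0.62; limma, adjusted p = 0.0199), with none of the 4 livers above the 3-month mean of 6.96. Adjusted p by limma was 0.0591 without M547, 0.0522 without M548 and 0.163 with each mean at weight 1. Pemt, higher at 12 months by 1.31 in 4 of 4 livers, had 0.0569, Mat1a (0.45) had 0.0769 and Ahcy (0.46) had 0.181. Without M546 Mat1a (0.56, adjusted p = 0.0354) and Ahcy (0.65, 0.0485) passed by limma.

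Whether the ATRi difference at 72 h itself differed between the ages was tested as an interaction. No enzyme passed, and 0.00899% of all genes (1 gene) did, while 2708 genes had an unadjusted p under 0.05. Bhmt had −1.56 (95% interval −2.52 to −0.60) and Ahcy 1.32 (0.52 to 2.12), both at an adjusted p of 0.111 by limma. Leaving out M546 brought both past the threshold, Bhmt at −1.81 (adjusted p = 0.0209, limma) and Ahcy at 1.501 (0.031), and raised the count of genes to 1311. Pemt (1.28, adjusted p = 0.238), Mat1a (0.41, 0.317), Cth (0.62, 0.471) and Cbs (−0.07, 0.849) did not pass by limma.

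**Figure D3:**
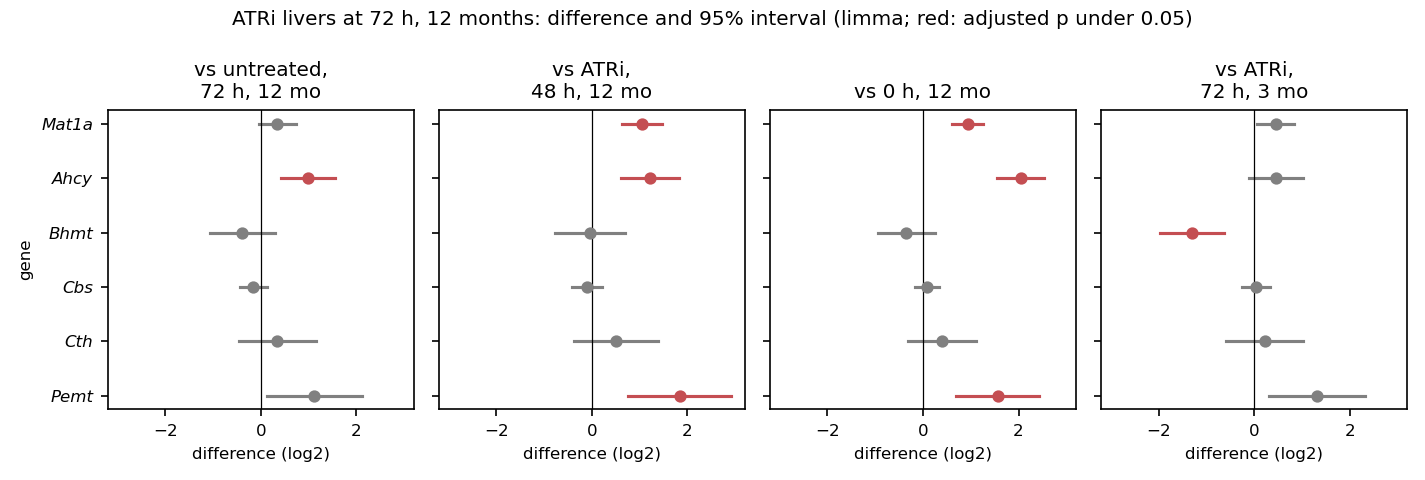
Difference in log2 level between the 12-month ATRi livers at 72 h and 4 other groups, one panel each, with 95% intervals from limma; red marks an adjusted p under 0.05. Mat1a, Ahcy and Pemt are red against ATRi at 48 h and against 0 h, Ahcy against untreated livers, and Bhmt, at −1.30, against 3-month ATRi livers.

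The 12-month ATRi livers at 72 h stood apart from other groups along the length of genes' introns, which bears on Pemt most. Of the 11119 genes, 10061 (90.5%) had an annotated intron length. In these livers against untreated ones the median difference was −0.06 for genes with 10 to 20 kb of intron, 0.33 for 50 to 100 kb and 0.50 above 100 kb, where 90.2% of genes were higher. Pemt has 73.8 kb of intron, Cth 28.0 kb, Cbs 20.9 kb, Mat1a 15.9 kb, Bhmt 15.5 kb and Ahcy 12.4 kb. The gradient was smallest in M546, with a median of 0.23 above 100 kb against 0.48 to 0.59 in the other 3 livers. Without ATRi the median differences from 48 to 72 h also rose with intron length. They were −0.12 at 10 to 20 kb and 0.16 above 100 kb at 3 months, and −0.19 and 0.17 at 12 months.

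Ahcy and Mat1a lie in a bin whose median was below 0, so that taking off the median of genes of like intron length left their differences larger: 1.04 for Ahcy and 0.40 for Mat1a against untreated livers, and 2.21 and 1.09 against 0 h. Pemt had 0.79 against untreated livers (1.12 before), 1.49 against ATRi at 48 h (1.84 before) and 1.23 against 0 h (1.56 before). Bhmt against 3-month ATRi livers had −1.22 in place of −1.30. These values were computed after the gradient had been seen and carry no test. The part of intron length in the Pemt difference was not tested.

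**Figure D4:**
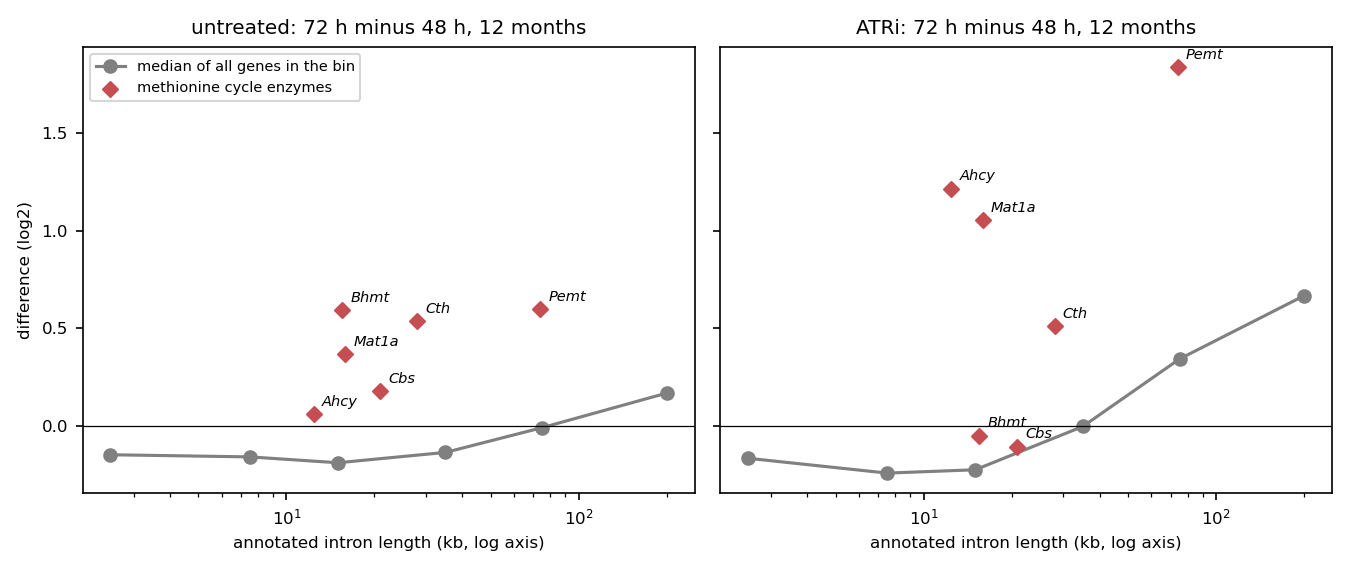
Difference in log2 level from 48 to 72 h at 12 months, untreated (left) and with ATRi (right), against annotated intron length (kb, log axis): grey points are medians of all genes in a length bin and red diamonds are the 6 enzymes. With ATRi the medians run from −0.22 at 10 to 20 kb to 0.67 above 100 kb, against −0.19 and 0.17 without it, and all enzymes but Cbs with ATRi, and all 6 without, lie above the medians of their bins.

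Among themselves, over the 9 deposited means, the most alike courses were those of Mat1a, Ahcy and Pemt, with Cth close behind. Pearson's r was 0.86 for Mat1a with Pemt, 0.82 for Mat1a with Ahcy and 0.72 for Ahcy with Pemt, and Cth had 0.69 with Pemt, 0.66 with Mat1a and 0.65 with Ahcy. Bhmt had r of 0.03 with Mat1a, 0.01 with Ahcy, −0.05 with Pemt, 0.22 with Cth and −0.36 with Cbs. These are descriptions over 9 group means, some of which share mice, and the highest value of Mat1a, Ahcy and Pemt is in the same group.

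Those genes most like each enzyme over the 9 means were picked by r among 4008 whose means spanned 1 or more, without the enzymes themselves, predicted, clone-named, mitochondrially encoded and joined entries. For Pemt they were Aplp2 and Spop (both 0.99), for Ahcy Ppm1g and Lrp1 (both 0.96), and for Mat1a Csnk1g3 and Lpin2 (both 0.96). All of these were highest in the 12-month ATRi group at 72 h, as the 3 enzymes were. Aplp2, Spop, Ppm1g and Csnk1g3 spanned 1 or more only through that group. Aplp2 had 5.27 there and 3.61 to 4.39 elsewhere, and Spop had 4.03 and 2.44 to 3.13. These r values include that group, and r without it was not computed. They therefore do not show how far the courses were shared in the other groups. Cth had Slc38a4, an amino acid transporter (0.94), and Asl, a urea cycle enzyme (0.93), nearest to it. Bhmt had Erbb3 and Cldn1 (both 0.89), and Cbs had Rarg (0.86) and Crip1 (0.83).

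Neighbouring steps of the pathway were described through lists of genes. Adk, the kinase that removes the adenosine released by AHCY, had at 12 months 2.07 at 0 h, 2.29 at 48 h, 2.07 at 48 h with ATRi, 3.93 at 72 h and 5.98 at 72 h with ATRi, where the livers had 6.50, 4.87, 6.19 and 6.37. At 72 h and 12 months it was higher with ATRi than without by 2.05 (limma, adjusted p = 0.0434). Against 0 h it was higher by 3.91 (limma, adjusted p = 0.00101). Its 387.5 kb of intron put it in the longest bin. At 3 months Adk had 2.24 at 0 h, 2.05 at 48 h, 3.37 at 72 h and 2.97 at 72 h with ATRi. The ATRi difference was −0.40 there, and the interaction (2.45) did not pass (limma, adjusted p = 0.105). Ahcyl1, an AHCY-like protein that regulates other proteins, was higher than in untreated livers by 1.10 (limma, adjusted p = 0.0429). Among the 15 measured methyltransferases and SAM regulators, which hold both, 2 passed higher and 0 lower in that comparison (median 0.43, all genes 0.08), a share near the 11.4% of all genes that passed. No gene passed there by limma with the livers on their deposited scale or with weight 1, and none without M545, M547 or M548, so all calls of that comparison in this and the next paragraphs ended there with that of Ahcy.

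Folate enzymes feed methionine synthase and the synthesis of nucleotides. At 48 h Tyms (thymidylate synthase) was higher than at 0 h by 1.53 at 3 months and 1.32 at 12 months, and Mthfd2 (mitochondrial folate dehydrogenase) by 1.38 and 1.57. These were the 2 of 19 measured folate genes higher by 1 or more at 48 h (6.43% and 5.12% of all genes were past 1 in either direction), with medians of −0.16 and 0.03, and at 12 months Aldh1l1, which oxidises folate-bound formyl groups, was at −1.28. At 72 h none of the 19 was higher than at 0 h by 1 or more at either age, and Tyms was at 0.83 and 0.44. In the ATRi comparison at 72 h and 12 months 1 of the 19 passed (11.4% of all genes), Slc25a32, the mitochondrial folate carrier (0.83; limma, adjusted p = 0.0492).

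Of the 14 measured genes of cysteine, taurine and glutathione metabolism, which lie after Cth, 4 were lower by 1 or more at 48 h and 3 months (6.43% of all genes past 1 in either direction), led by Csad, the enzyme that makes hypotaurine (−2.60), and Suox, sulfite oxidase (−1.25). At 48 h and 12 months (5.12% of all genes) 2 were higher instead, the glutathione synthesis genes Gclc (1.44) and Gss (1.18). Csad was lower at 72 h at either age as well (−1.46 and −1.20) and lower with ATRi than without at 72 h and 12 months (−0.68; limma, adjusted p = 0.0434), while Got1, an aminotransferase, was higher by 1.30 (0.0492). The 11 measured genes of the betaine, choline and glycine branch, which lies around the BHMT reaction, had medians of −0.36 and −0.34 at 48 h at 3 and 12 months, with the betaine transporter Slc6a12 at −1.17 and −0.92. The list of phosphatidylcholine synthesis, with 8 genes measured, also holds genes that make phosphatidylethanolamine, the substrate of PEMT. Of these 8, Etnk2 alone, an ethanolamine kinase, was past 1 at 48 h and 3 months (1.10). None of the 8 was past 1 at 48 or 72 h at 12 months. Of 13 polyamine and methionine salvage genes Srm (1.13 at 48 h, 3 months) and Amd1 (1.01 at 48 h, 12 months), which use SAM for polyamines, were the ones higher by 1 or more at 48 h.

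The wider set of amino acid enzymes was described in the same way. The 20 measured genes of the urea cycle and amino acid catabolism had medians of −0.23 at 48 h and 0.18 at 72 h at 3 months, and of −0.46 and 0.07 at 12 months. In all 4 comparisons these medians had the same sign as those of the 6 methionine cycle enzymes. At 48 h and 12 months 16 of the 20 were lower, while the 6 enzymes split into 3 higher and 3 lower (median −0.05, all genes −0.02). At 72 h and 12 months 11 of the 20 were higher, against all 6 enzymes. The 13 measured genes of the ATF4 response to amino acid shortage had medians of 0.01, 0.31, 0.17 and 0.04 in the same 4 comparisons. No test compared these lists with the 6 enzymes.

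**Figure D5:**
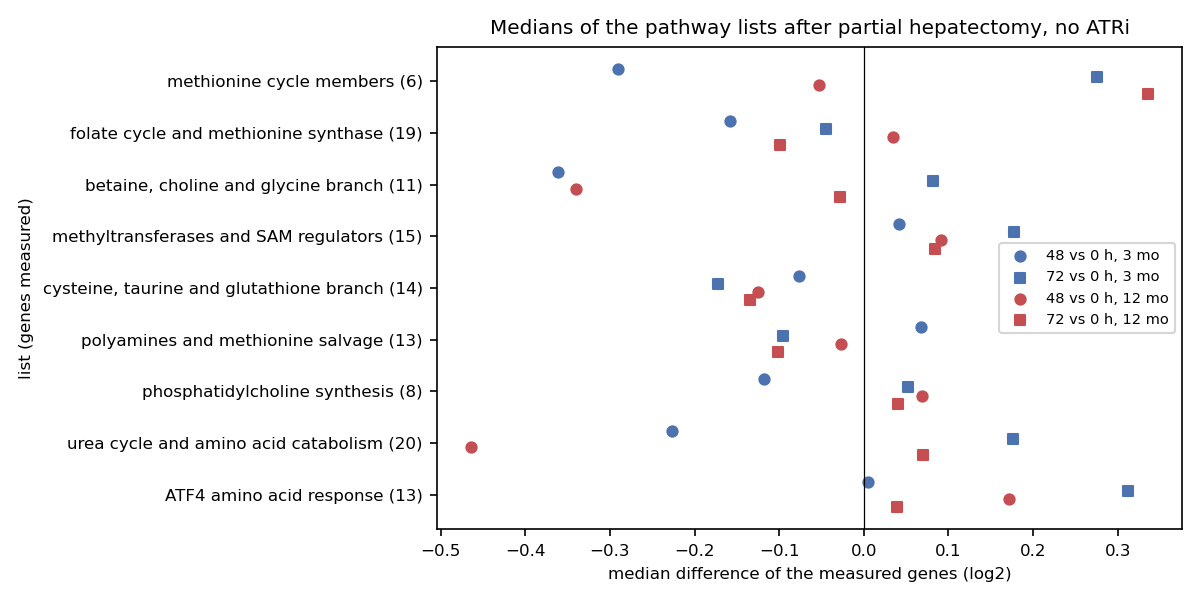
Median difference in log2 level from 0 h of the 6 enzymes and of 8 pathway lists, without ATRi (circles 48 h, squares 72 h; blue 3 months, red 12 months), with the number of measured genes in brackets. The 6 enzymes have medians of −0.29 and −0.05 at 48 h and of 0.28 and 0.34 at 72 h.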

How the data were processed

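Polyadenylated RNA of mouse liver had been sequenced. The authors deposited tables of log2 levels (of a value the file text names sigma) for 11119 genes: 9 group means and 4 single livers. The submitters' processing notes name the build GRCm38 (mm10). The aligner, counting, scaling and the way means were made are not given in the sources used here. No counts are given, so the depth behind the values is unknown.

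Genes were matched by symbol. Values were not normalized further. The enzymes, the pathway and marker lists and the tests were chosen with earlier results of these data known. The deposited mean of the 12-month ATRi group at 72 h is not the mean of its livers' log2 levels (median offset 0.09 over all genes, 0.08 to 0.33 for the 6 enzymes), so each gene's 4 livers were shifted to that mean. They entered limma 3.58.1 (R 4.3.3, intensity trend, robust, two-sided) with weight 1, beside the 8 other means weighted by their number of mice. The residual degrees of freedom are 3, all from these livers. The fit was run on simulated data in which every group had the spread of the 4 livers, with no offset and no shared mice. That run could not check these assumptions in the real data. Lists are described by counts and medians. All 6 enzymes were named, with up to 3 genes of each list by size of difference and the 2 genes most correlated with each enzyme. Gene positions and intron lengths came from GENCODE M21. Marker sums are log2 of summed linear levels. Alternatives were other thresholds, centring, a filter on levels under 1, unshifted livers, other weights, no trend, the spread of the livers borrowed for means, and each liver left out.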

Additional observations from a re-analysis of the deposited data

Results flagged for a closer look

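Cth in liver M545 of the 12-month ATRi group at 72 h had a level of 8.936, and the nearest of the other 3 livers had 7.659, so that this gap took up 0.931 of the range of the 4 livers. It was 1 of the 6 enzymes with a liver this far from the rest. Over all genes 688 (6.19%) had such a liver, near the 1 in 20 that chance gives, and in 208 of them it was M545, in 311 M546, in 62 M547 and in 107 M548.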

How the results depend on the processing

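Limits first: depth is unknown, and the spread in every test comes from 4 livers. No paired analysis was possible because levels of single livers are given for 1 group only and the 0 h mice are given as a mean. Counts below are of the 6 enzymes past 1, or past the test. Centring on the median of all genes gave 0 at 0 h between ages, 1 for 72 h and 2 for 72 against 48 h at 3 months; taking off the median of genes of like intron length gave 0 at 0 h between ages and 1 for 72 h against 0 h at 3 months. A threshold of 0.5 gave 2 at 0 h between ages, 1 at 48 h and 1 at 72 h between ages, 2 for each of 48 and 72 h against 0 h at either age, 3 for 72 against 48 h at either age, 1 for ATRi at 48 h against 0 h and 1 for ATRi at 72 h against 0 h at 3 months. With the livers' spread borrowed, limma called 1 for 72 h against 0 h at 3 months, 2 at 12 months and 0 for ATRi at 72 h and 3 months.

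For the 12-month ATRi livers at 72 h against untreated ones, the enzymes called by limma were 0 with unshifted livers, 0 without trend and robust and 0 with weight 1, and 0 to 2 with a liver left out; genes called were 0, 863 and 0, and 0 to 2686. With weight 1 the other comparisons gave 0 enzymes and 914 genes against ATRi at 48 h, 1 and 574 against 0 h, 0 and 7 against ATRi at 3 months, and 0 genes for the interaction, which had 0 genes with the filter and 0 without trend and robust too, beside 429, 2244 and 2682 genes at an unadjusted p under 0.05. Leaving out a liver gave 2621 to 4550 genes against ATRi at 48 h, 0 to 3 enzymes and 1311 to 3840 genes against ATRi at 3 months, and 0 to 2 enzymes and 0 to 1311 genes for the interaction. Differences that passed under no setting and changed sign were Bhmt against ATRi at 48 h (0.006 without M547, −0.302 to 0.115 over the livers left out, 0.175 less the median of like intron length), Cbs against 0 h (−0.064 unshifted), Cbs against ATRi at 3 months (−0.106 unshifted, −0.01 centred, −0.002 to 0.105 over the livers left out) and Cth there (−0.111 unshifted, −0.115 to 0.343). So did, when centred, Mat1a (0.031) and Cbs (0.045; 0.052 by intron length) at 48 h and 3 months, Cth between ages at 0 h (0.02; 0.048 by intron length) and Mat1a between ages at 48 h (−0.002). The causes were not tested, beyond the fewer livers or the smaller weight that a setting itself sets.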
